A study of Mus musculus with 2 samples.

Results

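C1q-high Arg1-negative macrophages were the tumour macrophages that held abundant complement C1q transcripts and no transcript of the arginase gene Arg1, and 192 of 14624 kept CD45+ cells met their definition. Members were chosen by their own transcript counts, given as UMIs (unique molecular identifiers, 1 per captured transcript). A cell needed 200 or more detected genes and no more than 15% of UMIs from mitochondrial genes. It also needed at least 4 UMIs summed over the macrophage genes Csf1r, Adgre1, Cd68 and Fcgr1, at least 5 summed over C1qa, C1qb and C1qc, and 0 of Arg1. Its C1q sum had to exceed the sum of the monocyte genes Hp, Chil3, Plac8 and Ifitm6. At most 1 UMI of the dendritic cell genes Cd209a, Flt3, Xcr1 and Fscn1, 0 of the lymphocyte genes Cd3d, Cd3e, Cd79a and Ncr1, and at most 2 of the cell cycle genes Mki67, Top2a and Birc5 were allowed. These 23 genes selected the cells, so their levels are a description and not a finding.

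The cells came from B16F10 tumours, a transplantable mouse melanoma line grown under the skin, 10 days after injection. The WT library came from Kcnj2f/f mice, which carry floxed Kcnj2 alleles and no Cre, and the KO library from Lyz2-Cre Kcnj2f/f mice, in which Cre driven from the myeloid gene Lyz2 recombines the same floxed alleles. Kcnj2 encodes the inwardly rectifying potassium channel Kir2.1, and the stated aim was to see what it does in the tumour microenvironment. Both groups carried the floxed alleles and the tumour, and each library held CD45+ cells sorted from a pool of 3 tumours from different mice. Only the KO mice carried Cre, and Lyz2, the gene that drives it, was also lower in KO members, as given below. An effect of Cre itself or of lower Lyz2 therefore cannot be told apart from loss of Kcnj2. There was 1 library per genotype. The sources used here give no age for the mice. No difference between WT and KO has a replicate check, no p-value was computed, and every interval below is a 95% interval that covers counting error only.

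C1q is the recognition molecule of the classical complement pathway. It is built from the products of C1qa, C1qb and C1qc and, unlike most complement proteins, is made chiefly by macrophages and some dendritic cells instead of by the liver. In tissues and tumours, C1q-rich macrophages are known for taking up dying cells and for presenting antigen, and many express the folate receptor gene Folr2, the mannose receptor gene Mrc1, Ms4a7 and the chemokine gene Pf4. Arg1, which consumes arginine, is a familiar marker of a different, often hypoxic, state of tumour macrophages. In the mouse genome (GRCm38) the C1q genes lie side by side on chromosome 4, at chr4:136880129-136886187 for C1qb, chr4:136889804-136893065 for C1qc and chr4:136895917-136898803 for C1qa, all on the minus strand.

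The WT library held 81 of the cells and the KO library 111. They made up 0.906% of the 8936 kept WT cells (exact binomial interval 0.720 to 1.13) and 1.95% of the 5688 kept KO cells (1.61 to 2.35), a log2 ratio of KO over WT of 1.11 (0.68 to 1.54). Among macrophage-gated cells, which met the same conditions without those on C1q, Arg1 and monocyte genes, the order was the opposite. There they made up 14.7% of 552 WT cells (11.8 to 17.9) and 9.45% of 1175 KO cells (7.84 to 11.3), a log2 ratio of -0.64 (-1.06 to -0.20). The cells were thus a larger share of the KO library and a smaller share of its macrophages, whose number the sort and the pooling of 3 tumours can also set. Limits in UMIs move with depth, so cells with at least 3000 UMIs were thinned to 3000 before the rule, and shallower cells were left out. This kept 5636 of 8936 WT and 4628 of 5688 KO cells, so a larger part of the WT library was left out. The shares were then 0.869% and 1.71% of these cells. Among macrophage-gated cells, now 282 in WT and 656 in KO, they were 17.4% and 12.04%, where the interval of the log2 ratio reached from -1.06 to 0.02.

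Depth was similar in the 2 groups of members, at median values of 8854 UMIs in WT and 9246 in KO, with 2350 and 2457 genes. Summed over members the libraries gave 668305 and 1020674 UMIs, and levels below are CPM, the usual scaling of counts to a fixed total, of these sums. The whole kept libraries differed more, with medians of 4398.5 and 8026 UMIs per cell. The libraries shared 63 cell barcodes, and 0 of them belonged to a member. Few cells lay at the C1q limit: 5 WT and 7 KO members held 5 or 6 C1q UMIs, while 4 and 7 cells with every other condition met held 3 or 4. At the Arg1 limit, 8 WT and 15 KO cells were left out for a single Arg1 UMI, and 24 and 43 for 2 or more. The lymphocyte condition alone left out 35 WT cells but 6 KO cells. No doublet caller was run.

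The rule set the C1q levels, which are given as a description, and the markers that it did not use bore out the label only in part. C1qb stood at 2717 CPM in WT and 2785 in KO members, C1qa at 1814 and 1783, and C1qc at 780 and 905 (log2 ratio of KO over WT 0.22, 0.06 to 0.37). The median member carried 38 C1q UMIs in WT and 39 in KO. Among the markers that the rule did not use, Pf4 stood at 672 and 754 CPM, Ms4a7 at 269 and 365, and Mrc1 at 253 and 332. Folr2, at chr7:101839988-101857194, was the lowest at 59.9 and 39.2 CPM (log2 -0.61, -1.28 to 0.06), and a Folr2 UMI was seen in 16.0% of WT and 11.7% of KO members. Mrc1 was seen in 45.7% and 67.6% of them. At 3000 UMIs per cell the Mrc1 shares were 38.6% and 58.4% of members against 0.592% and 0.646% of T cells, which should lack the gene, and the Folr2 shares were 7.14% and 6.93% against 0.0455% and 0%. The Kupffer cell gene Vsig4 was at 0 in both libraries. The members are therefore C1q-high cells in which a Folr2 transcript was captured in a minority.

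**Figure D1:**
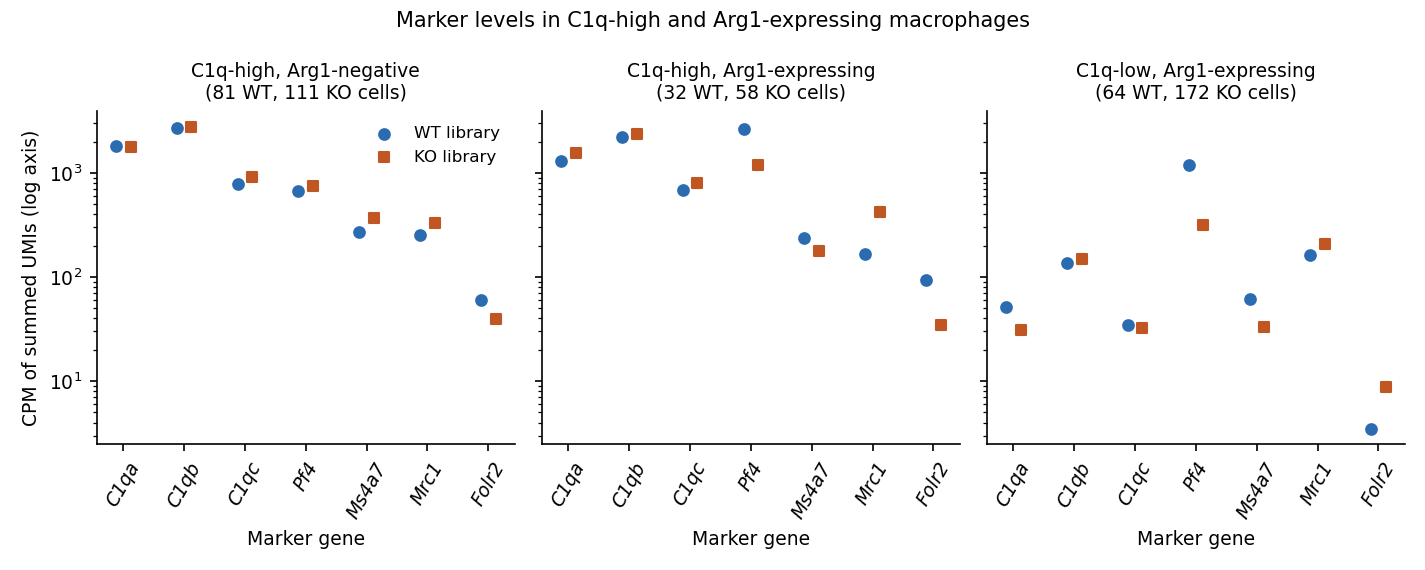
CPM of the 7 marker genes (log axis) in C1q-high Arg1-negative macrophages and, for comparison, in Arg1-expressing macrophages that met or missed the C1q conditions, with circles for the WT library and squares for the KO library. The C1q genes and Arg1 were part of the selection. Pf4 in Arg1-expressing cells was higher in WT than in KO (2627 against 1185 CPM in the C1q-high ones), while in Arg1-negative members it was 672 against 754.

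Individual members varied. Of Folr2, Mrc1, Ms4a7 and Pf4, none was seen in 16 of 81 WT and 13 of 111 KO members, exactly 1 in 29 and 31, 2 in 19 and 39, 3 in 13 and 18, and all of them in 4 and 10. At 3000 UMIs per cell, the members with none made up 35.7% in WT and 21.8% in KO. Members with no captured marker beyond C1q were thus common at this depth.

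Kcnj2 itself, at chr11:111066164-111076821, was sparse. WT members held 15 Kcnj2 UMIs in 12 cells (22.4 CPM) and KO members 11 UMIs in 3 cells (10.8 CPM), a log2 ratio of -1.06 (-2.33 to 0.16). The share of cells with a UMI was 14.8% and 2.70%, against 0.149% and 0.221% of T cells. The loss of the channel was therefore not resolved at this depth by the summed count, and 3' tags outside a deleted part can still be read from a recombined allele. Lyz2, the lysozyme gene that drives Cre, stood at 10420.4 CPM in WT and 1303 in KO members (log2 -2.999, -3.09 to -2.91). Its near copy Lyz1, its neighbour on chromosome 10, stood at 17.96 and 262 CPM (log2 3.86, 3.04 to 4.84). Both lysozyme genes are similar in sequence, so how reads were split between them is uncertain. In KO members both lay far below the WT level of Lyz2, and the cause of this was not tested. Lyz2 UMIs were seen in 78 of 81 WT and 49 of 111 KO members.

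The comparison of KO with WT asked how members differed with the genotype. A gene was called when its ratio was at least 1.5-fold with a counting interval on 1 side of 0, among genes with at least 20 UMIs over both libraries. Of 6589 such genes, 405 (6.15%) were called higher and 176 (2.67%) lower in KO, and the median log2 ratio of all of them was 0.07. The split depended on the scaling: with median-of-ratios scaling it was 308 higher and 253 lower, and with mitochondrial, ribosomal protein and lysozyme UMIs left out of the total it was 332 and 226. With median-of-ratios scaling 33 of the 41 list genes called higher were still called, those lost being Gpnmb, Ier2, Itgax, Junb, Jund, Sirpa, Tapbp and Tgfbi, and all 16 called lower were still called. These shares are the background against which the gene lists below were read. UMIs of a gene within a cell are not independent draws from the group, and without the cell that held the most UMIs of the gene in each library 374 of the 405 and 128 of the 176 genes were still called.

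**Figure D2:**
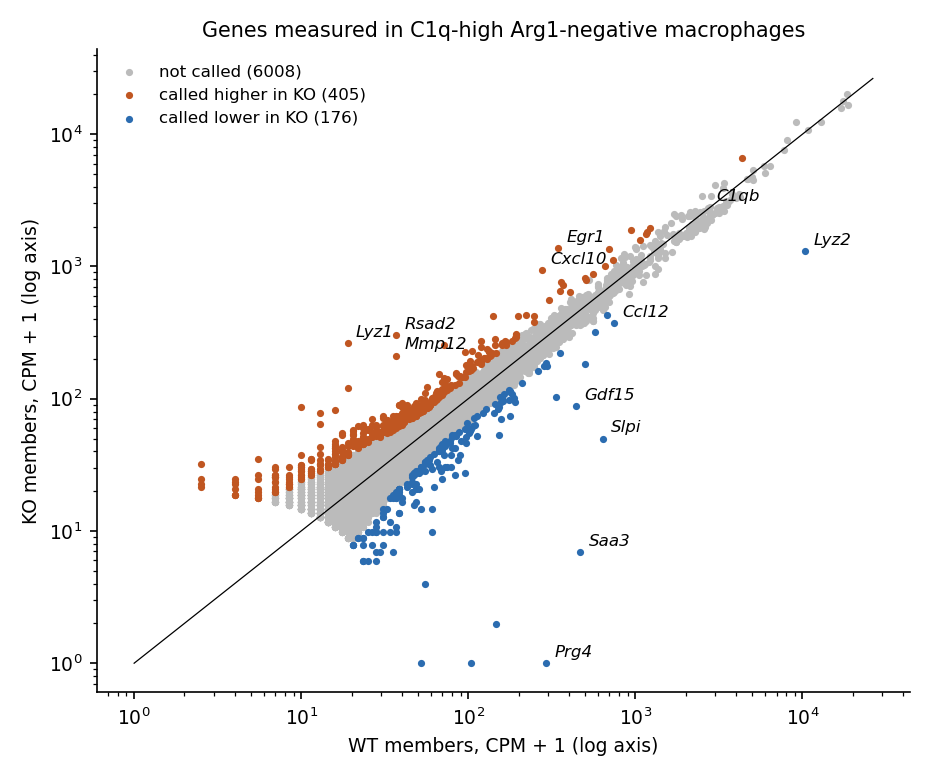
CPM + 1 of 6589 genes in WT members (x axis) and KO members (y axis), both log axes, with the line of equal levels; 405 genes called higher in KO are orange and 176 called lower are blue. Lyz2 lies far below the line and Rsad2, Egr1 and Cxcl10 above it, while C1qb lies on it.

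Type I interferon response genes were among the lists with the most genes higher in KO members. Type I interferons bind a common receptor, which switches on a set of antiviral genes. Of 19 measured genes of that list, 7 were called higher and 0 lower, where 6.15% of all genes were called higher, with a median log2 ratio of 0.58 beside 0.07 for all genes. The genes' lower counting limits had a median of -0.12 and the upper ones of 1.44, so for many genes of the list the direction was not resolved. Rsad2, which encodes the antiviral protein viperin (chr12:26442746-26456452), had 24 UMIs in 11 WT cells and 306 UMIs in 40 KO cells, or 35.9 and 299.8 CPM (log2 3.06, 2.46 to 3.73). Ifit1, which binds foreign RNA, stood at 8.98 and 86.2 CPM (3.26, 2.08 to 4.75). Oasl1, of the oligoadenylate synthetase-like family, stood at 17.96 and 121 CPM (2.75, 1.89 to 3.74). None of these 3 differences rested on the cell with the most UMIs: without it in each library the log2 ratios were 3.43, 3.44 and 2.73.

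Smaller differences were seen in Ifit3 (37.4 and 89.2 CPM, log2 1.25), Ifit2 (38.9 and 91.1, 1.23), Irf7, the factor that amplifies interferon transcription (118 and 272, 1.20), and Oasl2 (70.3 and 142, 1.01). Ifit3 has a near-identical copy, Ifit3b, so reads may have been split between them. Isg15, the ubiquitin-like interferon product, was level at 242 and 265 CPM (0.13, -0.16 to 0.42). The interferon-beta gene Ifnb1, named here after its values were seen, had 8 UMIs in 3 WT members and 78 UMIs in 20 KO members, or 11.97 and 76.4 CPM (2.67, 1.63 to 3.94). Both Ifnb1 and part of the type I interferon list were thus higher in KO members, and a link between them was not tested.

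For called genes, the difference lay in how many cells carried the transcripts as well as in their level, which is given as a description. The 5 genes counted next are all among the 7 called higher in KO, so a difference in this direction was partly built into the choice. None of Rsad2, Ifit1, Ifit2, Ifit3 and Oasl1 was seen in 57 of 81 WT members (70.4%) and 44 of 111 KO members (39.6%), while at least 3 of them were seen in 4 (4.94%) and 20 (18.02%). The summed list reached a median of 6.41 UMIs per 10000 in WT cells and 12.98 in KO cells, with ranges from 0 to 154 and from 0 to 202 that overlapped. The 5 cells with the most list UMIs held 29.8% of them in WT and 24.1% in KO. At 3000 UMIs per cell, Rsad2 was seen in 8.57% of WT and 26.7% of KO members, against 2.14% and 4.52% of T cells.

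Markers of plasmacytoid dendritic cells, which are rich in Irf7, summed to 254 CPM in WT and 407 in KO members. A single KO cell held 153 of their 415 UMIs. These markers include Tcf4 and Irf8, and Irf8 is also on the macrophage transcription factor list. Leaving out members with a UMI of Siglech, Ccr9, Cox6a2, Klk1 or Ly6d kept 71 WT and 104 KO cells and gave a median log2 ratio of the type I interferon list of 0.49. Leaving out every member with a UMI of a wider list of lymphocyte or melanoma genes kept 21 and 40 cells and gave 2.44, and thinning gave 1.17.

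Type I interferon is known to act through an upstream element, and the sequence is shown for the called genes that held its core. The core of the interferon-stimulated response element, GAAANNGAAA, was searched on both strands in 300-base windows around gene starts (250 bases before to 50 after) in the RefSeq table for GRCm38.p6. All 7 called genes had an entry and 3 held a match, as did 5 of the 7 measured but uncalled genes with an entry, beside 3.44% of 32851 promoters in all. The 250 bases before the gene start are printed 5′ to 3′ on the gene's strand, with matches to the core, on either strand, in capitals. They lie at chr12:26456453-26456702 (minus strand) for Rsad2, chr19:34640639-34640888 (plus strand) for Ifit1 and chr19:34583279-34583528 (plus strand) for Ifit3.
Rsad2: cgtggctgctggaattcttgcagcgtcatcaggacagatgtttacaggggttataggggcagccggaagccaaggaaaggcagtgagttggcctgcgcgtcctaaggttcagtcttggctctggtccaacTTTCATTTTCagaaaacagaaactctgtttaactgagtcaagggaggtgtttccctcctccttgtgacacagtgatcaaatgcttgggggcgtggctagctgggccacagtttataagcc
Ifit1: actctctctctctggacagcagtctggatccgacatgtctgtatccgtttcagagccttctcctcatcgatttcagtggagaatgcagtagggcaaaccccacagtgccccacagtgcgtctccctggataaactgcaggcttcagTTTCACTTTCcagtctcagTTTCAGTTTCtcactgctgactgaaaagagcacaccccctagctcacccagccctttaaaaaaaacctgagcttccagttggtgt
Ifit3: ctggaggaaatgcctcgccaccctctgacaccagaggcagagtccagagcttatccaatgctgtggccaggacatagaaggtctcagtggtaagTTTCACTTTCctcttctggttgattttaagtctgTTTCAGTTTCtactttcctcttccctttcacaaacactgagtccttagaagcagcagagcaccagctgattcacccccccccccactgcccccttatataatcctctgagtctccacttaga
Ifit1 and Ifit3 each held 2 matches and Rsad2 held 1, and the matches in all of them lie on the opposite strand. A match is a description of the letters in the window and not a binding site.

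Interferon-gamma response genes, induced through a separate receptor, showed 5 of 15 called higher and 0 lower, with a median of 0.48. Cxcl10, a chemokine for T and NK cells, stood at 274 CPM in 24 WT cells and 942 in 54 KO cells (log2 1.78, 1.55 to 2.02). Gbp5 stood at 19.5 and 51.9 CPM (1.42) and Gbp2, another guanylate-binding protein gene, at 94.3 and 223 (1.24). Cxcl9, which acts on the same receptor as Cxcl10, stood at 198 and 421 CPM (1.09), but 15 WT and 20 KO cells carried it and a single cell held 43.9% and 24.4% of its UMIs. The transcription factor gene Irf1 stood at 114 and 214 CPM (0.91). In the 21 WT and 40 KO members free of wider lymphocyte and melanoma UMIs, Cxcl9, Irf1 and Gbp5 had the opposite direction (-3.03, -1.34 and -0.90).

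**Figure D3:**
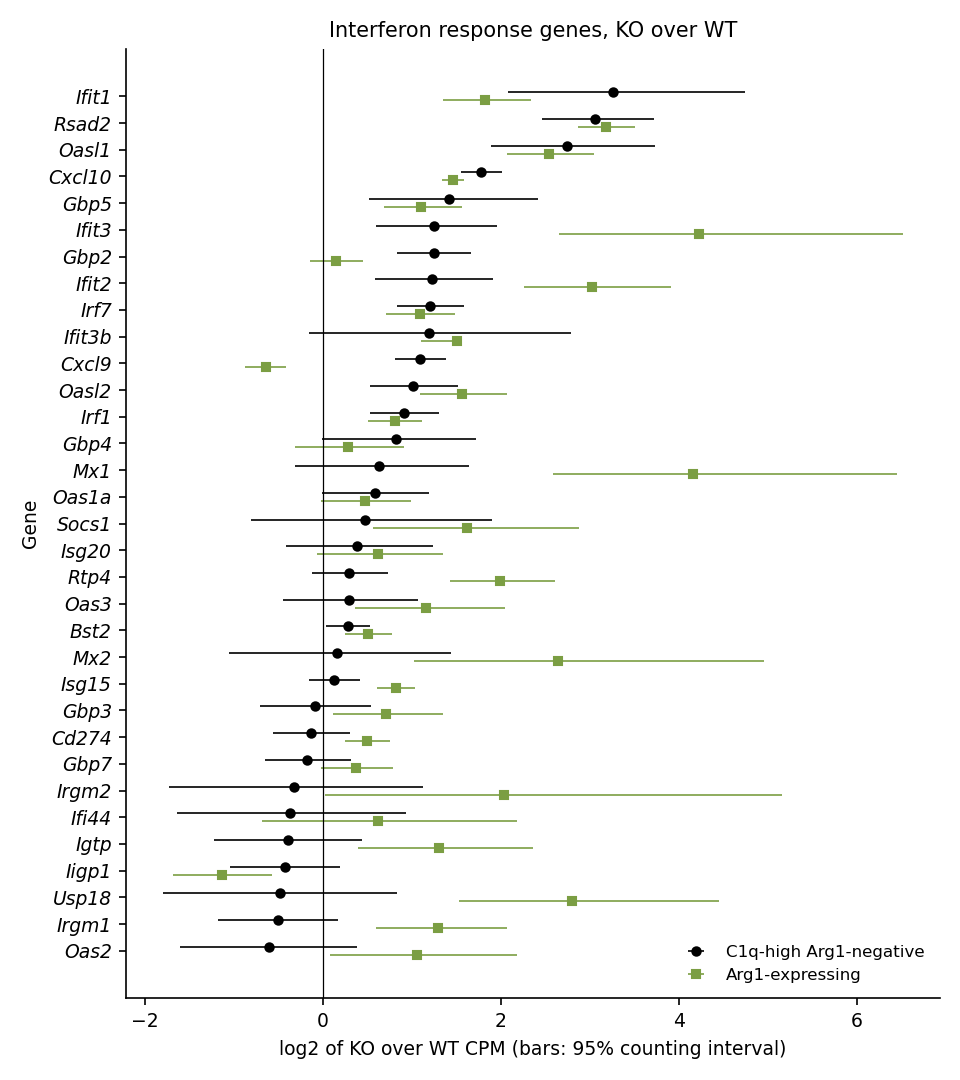
log2 ratio of KO over WT CPM for genes of the type I interferon and interferon-gamma lists, with circles for C1q-high Arg1-negative macrophages, squares for Arg1-expressing macrophages and bars for the 95% counting interval. Ifit1 (3.26 and 1.83), Rsad2 (3.06 and 3.18) and Oasl1 (2.75 and 2.54) lie well above 0 in both groups, and Cxcl9 lies above 0 in the Arg1-negative cells (1.09) and below 0 in the Arg1-expressing cells (-0.64).

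The same contrast was set beside that in Arg1-expressing macrophages, 96 WT and 230 KO cells that met the macrophage, dendritic, lymphocyte and cell cycle conditions, held at least 1 Arg1 UMI and could have any C1q. In those cells 16 of 20 measured type I interferon genes were called higher and 0 lower, with a median of 1.69, where 538 of 8080 genes (6.66%) were called higher and 348 (4.31%) lower. Over the genes measured in both, the list's median in members minus that in Arg1-expressing cells was -0.98 in log2 units and stayed between -1.25 and -0.32 in 14 alternatives. Rsad2 differed by genotype to a similar degree in both (3.06 and 3.18). Mx1 was at 20.95 and 32.3 CPM in members (0.63, -0.32 to 1.64) but at 3.36 and 60.3 CPM in Arg1-expressing cells. The WT and KO cells of both groups come from the same 2 libraries and are not independent.

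Immediate early genes, which are switched on within minutes by growth factors and by tissue handling, had 6 of 13 called higher in KO and 0 lower, with a median of 0.60. Egr1 had 343 CPM in WT and 1379 in KO (log2 2.01, 1.81 to 2.22), and was seen in 36 and 77 cells. Egr2 stood at 102 and 191 CPM (0.91), the phosphatase gene Dusp1 at 1227 and 1959 (0.68), and Junb at 1158 and 1769 (0.61). In Arg1-expressing cells 10 of 14 were higher, with a median of 0.65. Heat shock genes, a second sign of handling, showed 0 of 10 higher and 2 lower (median -0.10), with Hsph1 at 157 and 96.0 CPM and Dnaja1 at 289 and 184. Neither was called without the cell with the most UMIs in each library, and after thinning both had the opposite direction (0.90 and 0.45). The part of tissue handling in the difference was not tested.

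Genes of the alternative macrophage list, a mixed set that holds Mrc1 and also Il10, Vegfa and Stab1, were higher in 5 of 12 cases and lower in 1, with a median of 0.47. Ccl24, an eosinophil chemokine gene, stood at 14.96 CPM in 5 WT cells and 81.3 CPM in 10 KO cells (log2 2.44), and 1 cell held 60% and 59.04% of its UMIs. Il10 stood at 11.97 and 31.4 CPM (1.39), but it was seen in 6.17% of WT and 6.31% of KO members, 1 cell held 50% of its UMIs in each library, and it was not called without those cells. At 3000 UMIs per cell it was seen in 2.97% of KO members and 3.75% of KO T cells. In the members free of wider lymphocyte and melanoma UMIs Il10 had the opposite direction (-2.80). Klf4 stood at 97.3 and 175 (0.85), and the angiogenic factor gene Vegfa at 132 and 229 (0.80). The lectin gene Mgl2 was lower at 73.3 and 29.4 CPM (-1.32), but a single WT cell held 91.8% of its UMIs and without the top cells the ratio was 1.69. Mrc1 itself was not called (0.39, 0.12 to 0.67). Genes of the inflammatory macrophage list were mixed: 2 of 13 were higher and 3 lower. Cxcl10 and Cxcl9 were the higher ones, Il1a (153 and 51.9 CPM), Cd80 (64.3 and 32.3) and Ccl5 (144 and 90.1) the lower ones, and Il1b was level at 7806 and 7561 CPM. A single WT cell held 73.5% of the Il1a UMIs, and without the top cell of each library its log2 ratio was -0.068.

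Complement genes showed no common direction, with 2 of 12 measured list genes higher and 2 lower, where the 12 include the 3 selecting C1q genes, which were not called. C3, the central component, stood at 40.4 and 68.6 CPM (log2 0.76) and Itgax, a subunit of a complement receptor, at 38.9 and 63.7 (0.71). C4b stood at 53.9 and 2.94 CPM (-4.20). A pair of WT cells with Prg4 UMIs, described below, held 69.4% of the WT C4b UMIs.

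Tissue-resident macrophage genes showed 1 of 15 higher and 3 lower, with a median of -0.27 that became 0.40 after thinning. The hyaluronan and lipoprotein scavenger receptor gene Stab1 was the higher one (88.3 and 148 CPM, log2 0.74). Cbr2 stood at 65.8 and 29.4 CPM (-1.16), Hpgd, which degrades prostaglandins, at 28.4 and 5.88 (-2.27), and Fcna at 25.4 and 8.82 (-1.53). Efferocytosis genes, used in the uptake of dying cells, showed 4 of 12 higher and 1 lower. The receptor gene Axl stood at 34.4 and 68.6 CPM (0.99), the integrin gene Itgav at 43.4 and 74.5 (0.78), the engulfment gene Dock1 at 8.98 and 24.5 (1.45), and the scavenger receptor gene Cd36 at 151 and 86.2 (-0.81). Among lipid-associated macrophage genes 3 of 18 were higher and 2 lower: Abca1, a cholesterol exporter, stood at 31.4 and 67.6 CPM (1.11), Spp1, which encodes osteopontin, at 304 and 555 (0.87), Gpnmb at 58.4 and 89.2 (0.61), Lpl at 352 and 222 (-0.66) and Fabp4 at 85.3 and 33.3 (-1.36). Apoe, the main lipoprotein gene of these cells, was not called (2979 and 4118 CPM, 0.47).

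Genes of antigen presentation through MHC class II differed little between genotypes. None of 7 genes was called in either direction, and their median was -0.06. Cd74, the invariant chain, stood at 16926 and 15679 CPM, H2-Aa at 5903 and 5736, and the master regulator gene Ciita at 124 and 126. MHC class I genes showed 3 of 12 higher and 0 lower: H2-Q6 (28.4 and 51.9 CPM, log2 0.87) and H2-Q7 (118 and 196, 0.73), which are near copies of each other, and the loading factor gene Tapbp (118 and 182, 0.62).

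Chemokine genes showed 4 of 20 higher and 2 lower. Besides Ccl24, Cxcl10 and Cxcl9, the neutrophil attractant gene Cxcl1 was higher (144 and 254 CPM, log2 0.82), although 7 WT and 11 KO cells carried it. Ccl12, a monocyte attractant, was the lower one with many UMIs, at 741 and 373 CPM (-0.99, -1.19 to -0.79). Growth factor and matrix genes showed 3 of 11 higher and 1 lower, among them Tgfbi at 1170.1 and 1822 CPM (0.64) and the elastase gene Mmp12 at 35.9 and 211 (2.55), of whose 215 KO UMIs 1 cell held 122. The growth factor gene Areg was the lower one (335 and 102.9 CPM, -1.70), and a single WT cell held 75.4% of its UMIs.

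In the remaining lists few genes were called. Lysosome genes had 1 of 18 higher, the cathepsin gene Ctsl (501 and 817 CPM, log2 0.70). Checkpoint and co-stimulation genes had 1 of 13 higher, Sirpa (192 and 293 CPM, 0.61), and 1 lower, Cd80. Macrophage transcription factors had 1 of 19 higher, Klf4. Iron and haem genes had 2 of 11 higher, Trf (106 and 169.5 CPM, 0.67) and Slc40a1, which had 2 WT and 18 KO UMIs, 16 of the latter in 1 cell, so that 0 WT and 2 KO UMIs lay outside the cells with the most. Glycolysis and hypoxia genes had 1 of 21 higher, Vegfa, with a median of 0.01 that became -0.054 with median-of-ratios scaling. Fc receptor genes (6 measured), oxidative phosphorylation genes (25) and potassium channel genes (6) had 0 in either direction.

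The genes with the highest ratios of KO over WT among those with a mean of at least 50 CPM were, besides Lyz1, Rsad2, Oasl1, Mmp12, Egr1, Cxcl10, Ifit3 and Gbp2, the monocyte surface antigen gene Ly6c2, Pdxk, Erbin and Tctex1d2. Ly6c2 stood at 139 CPM in 31 WT cells and 422 CPM in 56 KO cells (log2 1.60, 1.28 to 1.94). Other monocyte genes were closer: Ccr2, for example, stood at 675 and 810 CPM, and 6 monocyte genes outside the rule summed to 1776 and 2289 CPM.

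The lowest ratios were, besides Lyz2, Mgl2, Areg, Il1a and Fabp4, those of Serpinb2, Prg4, Saa3, Hspb1, Slpi, Gdf15 and Ifitm1. Several of these rested on few WT cells. Prg4, which encodes lubricin, had 195 UMIs in 2 WT cells and 0 in KO, a log2 ratio of -6.63 or lower with KO set at a floor of 3 UMIs. The same 2 cells held 97.4% of the WT UMIs of the acute-phase gene Saa3 (467 and 5.88 CPM), 75.3% of those of Serpinb2 (145 and 0.980 CPM) and 80.0% of those of the protease inhibitor gene Slpi (636 and 49.0 CPM). Without them Saa3 stood at 12.4 and Slpi at 131 CPM in WT. Hspb1 had 69 UMIs in 4 WT cells and 0 in KO (-5.13 or lower). The stress cytokine gene Gdf15 was spread more widely, at 438 CPM in 18 WT cells and 87.2 in 14 KO cells (-2.33, -2.69 to -1.98), and Ifitm1 stood at 501 CPM in 20 cells and 183 in 42 (-1.45). In the 21 WT and 40 KO members free of wider lymphocyte and melanoma UMIs both had the opposite direction (0.42 and 1.73).

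Against Arg1-expressing macrophages of the same library, the members differed in hypoxia, monocyte, inflammatory, chemokine and resident genes, among others. The rule itself separated these groups, so the values describe them and carry no test. Of 6087 genes with enough UMIs, rule genes left out, 76 (1.25%) were at least 2-fold higher and 126 (2.07%) at least 2-fold lower in members in both libraries. Clec4b1, a C-type lectin gene, stood at 67.3 CPM in WT members against 8.97 in Arg1-expressing cells, and at 68.6 against 16.0 in KO. The growth factor gene Igf1 stood at 70.3 against 20.2 and at 64.7 against 8.40. The selenium carrier gene Selenop stood at 489 against 141 and at 373 against 119, and the macrophage activation gene Aif1 at 886 against 277 and at 879 against 361. Frmd4b, Gdf15, Ciita, Tmem176b, Nrp1 and Lpl completed the 10 highest.

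The lowest in members were led by Il6 (4.49 against 58.3 CPM in WT, 0.980 against 79.0 in KO) and the neutrophil attractant gene Cxcl3 (88.3 against 1993, 81.3 against 734). Ero1l, a hypoxia-induced oxidase gene, stood at 97.3 against 481 and 80.3 against 349.8 CPM, and Trem1, which amplifies inflammation, at 14.96 against 98.6 and 23.5 against 124. Rgcc, Upp1, Timp1, Gpat3 and Errfi1 followed. By list, 0 of 21 glycolysis and hypoxia genes were higher and 6 lower in both libraries, with medians of -0.98 in WT and -0.90 in KO beside 0.09 and 0.14 for all genes. They were Slc2a1, Vegfa, Bnip3, Egln3, Ndrg1 and Ero1l. Of 16 inflammatory genes 4 were lower (Nos2, Il1a, Il6 and Il23a), and of 13 tissue-resident genes 5 were higher (Cbr2, Selenop, Ms4a7, Igf1 and Ccl8) and 1, F13a1, was lower. MHC class II genes were higher in 2 of 7, H2-DMb1 and Ciita. Of 20 chemokine genes 2 were higher (Ccl8 and Ccl12) and 4 lower (Ccl24, Cxcl1, Cxcl2 and Cxcl3), and of 13 growth factor and matrix genes 1 was higher, Igf1, and 3 were lower (Vegfa, Fn1 and Thbs1). Of 6 monocyte markers outside the rule 4 were lower, Vcan, Fn1 and F13a1 among them, with medians of -1.13 and -1.17, and the rule held other monocyte genes below C1q in members alone.

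**Figure D4:**
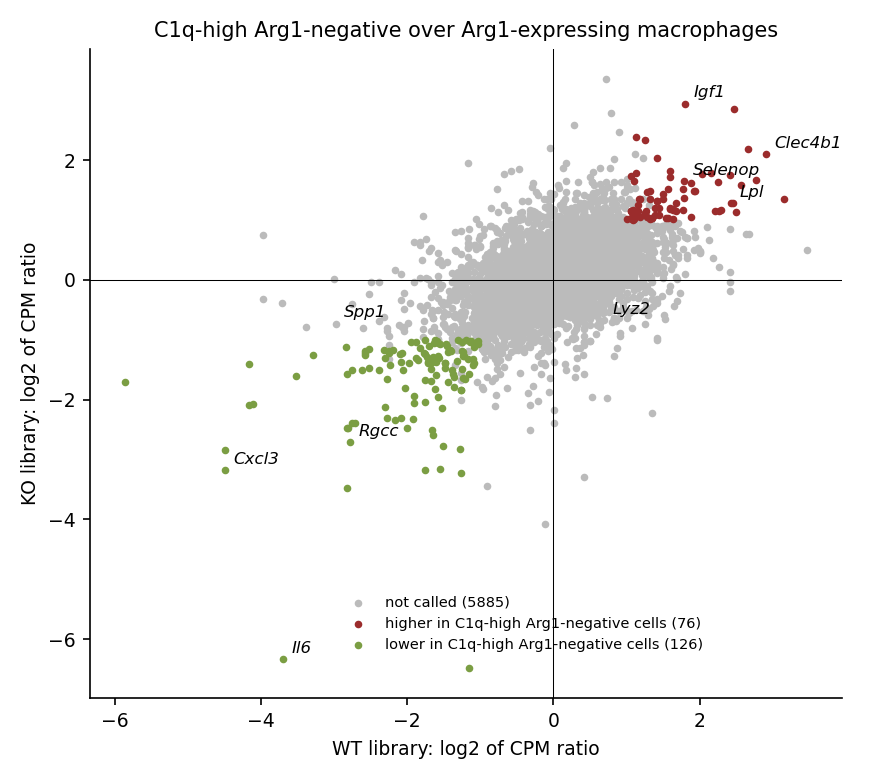
log2 ratio of CPM in C1q-high Arg1-negative macrophages over Arg1-expressing macrophages for 6087 genes, in the WT library (x axis) and the KO library (y axis); 76 genes called higher in both are dark red and 126 called lower in both are green. Igf1, Clec4b1 and Selenop lie at the upper right, Cxcl3 and Il6 at the lower left, and Spp1 is low in WT (-2.98) and nearer to 0 in KO (-0.73).

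The Arg1-expressing cells could have any C1q, so C1q and Arg1 both differed in this contrast. When only the 32 WT and 58 KO Arg1-expressing cells that met the C1q conditions were used, 39 genes were called higher and 53 lower. Fewer comparison cells also widen the counting intervals, so these counts cannot be set against those above. Against these cells Igf1 was closer, at log2 ratios of 0.55 and 0.96. Cxcl3 was still far lower in members (-3.85 in both), as were Rgcc (-1.78 and -2.55) and Ero1l (-1.96 and -1.28). Pf4, a gene of the tissue-resident list, was lower in members than in these cells in both libraries, as the figure of marker levels shows.

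Within the members, cells with a Folr2 transcript differed from the others in both libraries. There were 13 such cells in each library, against 68 and 98 with none, and they were shallower, with medians of 5762 against 9431 UMIs in WT and 6769 against 9282 in KO. A Folr2 UMI marks only part of the cells that express the gene. Of 3776 genes with at least 20 UMIs in each library, 58 (1.54%) were at least 2-fold higher and 88 (2.33%) at least 2-fold lower in both libraries, with counting intervals on 1 side of 0. The gene lists of this split were chosen after the other results had been seen. No value of the split is given without the cell with the most UMIs of a gene.

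Ccl8, a monocyte and T cell attractant, stood at 3455 CPM in WT cells with Folr2 against 243 in those without, and at 3325 against 222 in KO. It was seen in 9 of 13 and 8 of 13 of the cells with Folr2. Pf4 stood at 2999 against 340.2 CPM in WT and at 3675 against 427 in KO, and Igf1 at 468 against 13.7 and at 311 against 37.0. The lipid receptor gene Trem2 stood at 636 against 94.03 in WT and at 924 against 117 in KO. Serpinb6a, Cbr2, Hist1h2bc, the tetraspanin gene Cd63, Timp2 and Pmp22 completed the 10 highest. Of 11 tissue-resident genes measured 6 were higher and 0 lower, of 17 lipid-associated genes 8 were higher and 0 lower (medians 1.25 in WT and 1.14 in KO), and of 16 lysosome genes 6 were higher, beside medians of -0.02 and -0.16 over all genes. Of the 8 lipid-associated genes, Lpl, Apoe, Gpnmb, Cd63 and Trem2 were seen in larger shares of cells with Folr2 in both libraries. In KO, 3 were not: Spp1 (30.8% against 33.7%), Fabp5 (53.8% against 71.4%) and Lgals3 (92.3% against 99.0%).

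Of 19 chemokine genes, 4 were lower in the same cells (Cxcl3, Cxcl10, Ccl3 and Ccl4) and 1, Ccl8, was higher. Cxcl3 rested on few cells: 0 with Folr2 and 7 without carried it in WT, and 1 and 7 in KO. Ccl4 was seen in similar shares of WT cells (76.9% against 75%) but not of KO cells (30.8% against 86.7%). Malt1, a signalling protease gene of the NF-kappaB pathway, was at 0 in the 13 WT cells with Folr2 against 778 CPM in the others (log2 -4.43 or lower), and F10, which encodes coagulation factor X, was at 0 against 303 (-3.07 or lower). Ptgs2, the prostaglandin synthase gene, stood at 192 against 1462 CPM in WT and at 253 against 1716 in KO. Bhlhe40, Tnip3, Inhba, Thbs1, Rgs1, Ell2 and Vegfa were the others of the 10 lowest. Rgs1 was seen in 7.69% against 57.4% of WT cells but in 76.9% against 74.5% of KO cells. MHC class II genes were lower in 3 of 7 (H2-Ab1, H2-DMa and H2-DMb1) and higher in 0, with medians of -0.999 and -1.14, and H2-Ab1 stood at 2039 against 5407 CPM in WT and at 2391 against 5038 in KO. Of type I interferon genes, 0 of 11 were called in either direction, with medians of -0.06 and -0.14.

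**Figure D5:**
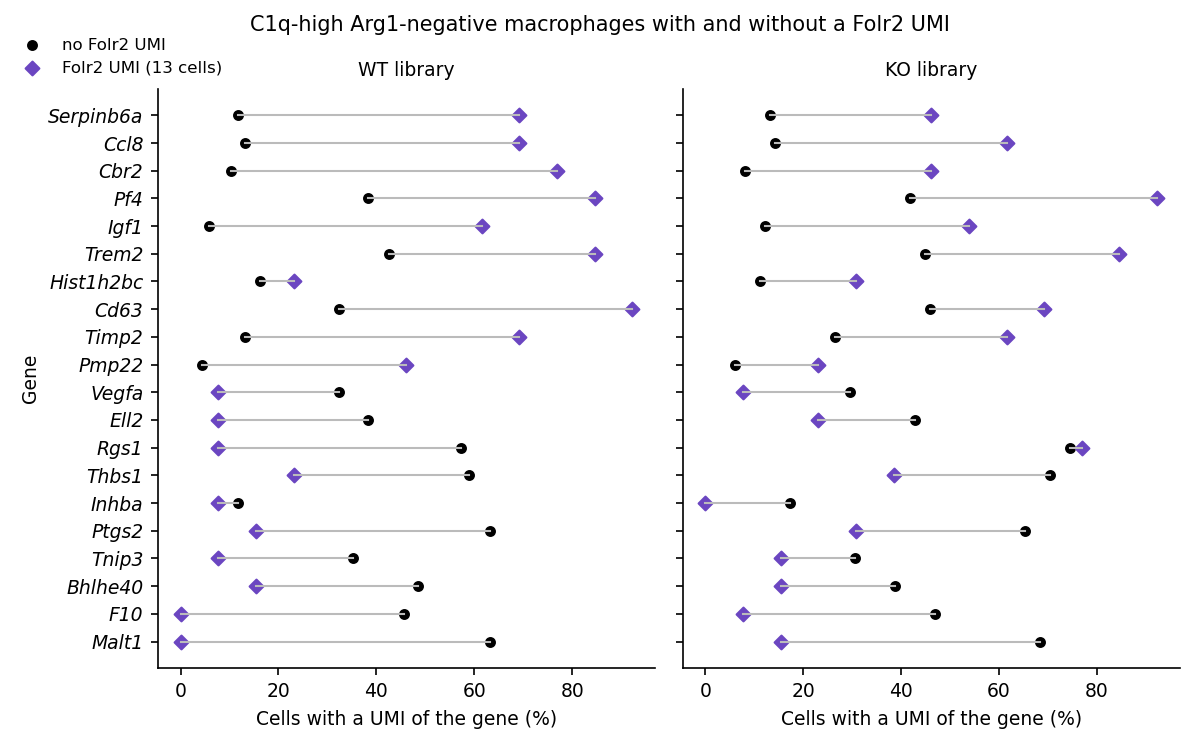
Percentage of C1q-high Arg1-negative macrophages with a UMI of the 10 genes most above and the 10 most below in cells with a Folr2 UMI (diamonds, 13 cells in each library) against cells without one (circles, 68 WT and 98 KO cells), in the WT (left) and KO (right) library. Ccl8 was seen in 69.2% against 13.2% of WT cells and 61.5% against 14.3% of KO cells, and Malt1 in 0% against 63.2% and 15.4% against 68.4%.

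Markers of other cell types were present to different degrees in members, and, apart from the members left out as given above, their part in the differences was not tested. The monocyte genes outside the rule were seen in 88.9% of WT and 90.1% of KO members, and their sums, given above, lay beside 2883 and 3193 CPM for 7 pan-macrophage genes, rule genes included. The plasmacytoid dendritic cell genes, whose sums are also given above, were seen in 77.8% and 82.0% of members. These shares include Tcf4 and Irf8, and Irf8 is also on the macrophage transcription factor list. No UMI of Siglech, Ccr9, Cox6a2, Klk1 or Ly6d was seen in 71 of 81 WT and 104 of 111 KO members. T cell genes outside the rule summed to 46.4 CPM in WT and 17.6 in KO members, with Cd8a and Cd4 at 0 in WT, and B cell genes to 181 and 105, with Ms4a1 at 0 in both. Melanoma genes summed to 41.9 and 79.4 CPM, with 24 of 81 KO UMIs in 1 cell. Genes of migratory dendritic cells summed to 10.5 and 40.2 CPM, and of neutrophils to 55.4 and 57.8, with Ly6g, Retnlg and Camp at 0 in both. Genes of type 2 dendritic cells summed to 339.7 and 398 CPM, and they include Sirpa, Itgax and Mgl2, which are also on other lists above. Mast cell genes had 0 UMIs in WT and 1 in KO.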

How the data were processed

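Gene expression was measured in CD45+ cells of 1 WT and 1 KO library with the 10x Chromium 3' v3 kit. The authors deposited UMI counts as whole numbers for 55450 genes in 9677 WT and 6356 KO barcodes, not normalized. Per the submitters' processing notes, bcl2fastq 2.20, Cell Ranger 3.1.0, Seurat 4.0.1 and GRCm38 were used, whereas the matrices name Cell Ranger 4.0.0 per the file headers, so the version is not settled.

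From these counts, UMIs were summed over the chosen cells of each library and scaled to CPM (Python 3.11.15, numpy 2.4.6, scipy 1.17.1, pandas 2.3.3, matplotlib 3.10.9). CPM carry exact Poisson intervals, shares exact Clopper-Pearson intervals and log2 ratios exact conditional binomial intervals, all at 95%. Where a library had 0 UMIs, 3 UMIs were taken as a floor. The difference between 2 log2 ratios carries an interval from summed Poisson variances. UMIs in the same cell are not independent, so intervals cover counting error only. With 1 library per genotype no test was run. No doublet caller was run; instead, members with the most UMIs or with markers of other cells were left out as alternatives. The calculation was tested on simulated data, drawn as independent Poisson counts at the members' mean levels. The simulation held no variation between cells, so it does not cover genes whose UMIs lay mostly in 1 cell. Gene coordinates are from GENCODE M21, in which all 55450 identifiers were found, and promoters from RefSeq.

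The members and gene lists were chosen with earlier results of these data known. The named genes are, in KO over WT, the 12 highest and 12 lowest with a mean of at least 50 CPM, in members over Arg1-expressing cells the 10 highest and 10 lowest by the ratio nearer to 0 of both libraries, and up to 4 called genes per list and direction, with the rule genes, given markers, Kcnj2, Lyz1 and Lyz2. The rankings left out mitochondrial, ribosomal protein, haemoglobin, immunoglobulin and T cell receptor genes, Xist and Y-linked genes, unnamed gene models and the rule genes. The same ranking was applied to the Folr2 split after other results had been seen. A few genes that the naming rule or the lists include are not reported here by name, but they stay in the counts and medians.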

Additional observations from a re-analysis of the deposited data

Results flagged for a closer look

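Of all measured genes, 6 were called higher in KO among C1q-high Arg1-negative macrophages and lower in KO among Arg1-expressing macrophages, and 6 the reverse. Beside them, 90 genes were called higher and 37 lower in both groups. Described here are 5 of the genes with opposite directions, each past 1.5-fold in its own group. Whether the groups differ was not tested, since there was 1 library per genotype. Values are log2 ratios of KO over WT, and differences are members minus Arg1-expressing cells. Spp1, the osteopontin gene, was higher in KO members (304 and 555 CPM, 0.87) and lower in KO Arg1-expressing cells (2394 and 920 CPM, -1.38), a difference of 2.25 (2.002 to 2.49). Cxcl9 differed by 1.74 (1.38 to 2.10; 1.09 in members and -0.64 in Arg1-expressing cells). Cxcl1 differed by 1.71 (1.35 to 2.06; 0.82 and -0.88), and a single WT member held 57.3% of its member UMIs. Samd9l, an interferon-induced gene named after its values were seen, was lower in KO members (83.8 and 50.9 CPM, -0.72) and higher in KO Arg1-expressing cells (45.96 and 112 CPM, 1.29), a difference of -2.01 (-2.73 to -1.29). Ccl5, a T cell attractant gene, differed by -1.66 (-2.17 to -1.14; -0.67 and 0.99). The opposite directions did not hold in every alternative. In members Spp1 turned when a single Arg1 UMI was allowed (-0.90) and after thinning (-0.50), Samd9l turned after thinning (1.08), Ccl5 was at 0.0023 with a single Arg1 UMI allowed, and Cxcl9 turned without members that held wider lymphocyte or melanoma UMIs (-3.03). Cxcl1 kept its direction in members (0.75 to 3.104 over 15 alternatives).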

How the results depend on the processing

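Of 16 alternatives, 9 changed which cells were counted, and in each of these the share of members was higher in KO among kept cells (log2 0.97 to 1.58) and lower among macrophage-gated cells (-0.65 to -0.16). Among macrophage-gated cells the interval spanned 0 with a macrophage sum of at least 2 UMIs (-0.78 to 0.03). It also did so without wider lymphocyte or melanoma UMIs (-0.96 to 0.68) and after thinning (-1.06 to 0.02). No alternative loosened the lymphocyte condition, which alone left out 35 WT and 6 KO cells. The median of the type I interferon list was above 0 in all alternatives (0.47 to 2.44). Of 315 values of the other list medians 11 left the counting range of the reported one and 23 changed sign, among them the tissue-resident list (-0.38 to 0.40). Of 1310 values of single genes 137 moved likewise, and 36 had the direction of a called difference turned. No ratio was taken where 1 library had 0 UMIs and the other at most 3, as for Slc40a1, Dock1 and Hpgd without members with wider lymphocyte or melanoma UMIs and for Hspb1 after thinning. The setting that moved most was leaving out every member with a UMI of wider lymphocyte or melanoma genes, which kept 21 WT and 40 KO cells and so tested fewer genes. It gave shares at log2 1.58 and -0.16, 178 genes higher and 116 lower, a type I interferon median of 2.44, and turned the direction of Cbr2 (0.24), Ccl24 (-0.22), Cd36 (0.27), Cd83 (-0.097), Cxcl9 (-3.03), Dusp1 (-0.072), Fabp4 (0.71), Gbp5 (-0.90), Gdf15 (0.42), H2-Q6 (-0.73), Ifitm1 (1.73), Il10 (-2.80), Il1rn (-0.13), Irf1 (-1.34), Itgax (-1.36), Lpl (2.14), Sirpa (-0.042), Stab1 (-0.061), and, with 0 UMIs in WT, Mgl2 (0.90 or higher) and Slpi (1.66 or higher). Thinning to 3000 UMIs, with shallower cells left out, left 49 and 79 members and gave 149 genes higher and 106 lower of 2574. It turned Dnaja1 (0.45), Fabp4 (0.69), Fcna (0.90), Gbp5 (-0.37), H2-Q6 (-0.69), Hsph1 (0.90), Ier2 (-0.070), Il1a (0.75), Samd9l (1.08) and Spp1 (-0.50). Fabp4 also turned at 10 or more C1q UMIs (0.16), Ccl5 (0.0023) and Spp1 (-0.90) with 1 Arg1 UMI allowed, Il1a (0.12) and Mgl2 (1.77) without the 5% of members with the most UMIs, and, in an alternative chosen after seeing the data, Mgl2 (1.69) without the cell with the most UMIs of the gene. The cause was not tested.

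Counts of called genes followed the limits and the number of genes measured. With no filter beyond 1 UMI, 483 of 14306 genes were higher and 280 lower. At 100 UMIs 172 of 2254 were higher and 57 lower, and at 2-fold 197 of 6589 were higher and 85 lower. Between members and Arg1-expressing cells, thinning gave 26 higher and 78 lower, and median-of-ratios scaling 46 higher and 172 lower. Arg1-expressing cells that met the C1q conditions, a smaller group chosen after seeing the data, gave 39 higher and 53 lower. No paired analysis was possible because there was 1 library per genotype, which also leaves no replicate to leave out.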

Other observations

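Some abundant genes outside the lists were called as well. Rgs1, a brake on chemokine receptor signalling, stood at 935 CPM in WT and 1879 in KO (log2 1.01), and Klf6, a zinc finger factor gene, at 697 and 1363 (0.97). Cd83, a surface marker of activated antigen-presenting cells, stood at 504 and 789 (0.65). Mcl1, an anti-apoptotic gene, stood at 559.6 and 879 (0.65), Nfkbiz at 733 and 1122 (0.61) and Il1rn, the interleukin-1 receptor antagonist gene, at 657 and 999 (0.61). With median-of-ratios scaling Cd83 (0.577), Mcl1 (0.583), Nfkbiz (0.545) and Il1rn (0.537) were no longer called, and Cd83 and Il1rn turned (-0.097 and -0.13) without members that held wider lymphocyte or melanoma UMIs. The protein disulfide isomerase genes Pdia6 (570.1 and 318 CPM, -0.84) and Pdia3 (679 and 431, -0.66), which fold proteins in the endoplasmic reticulum, were lower. These genes were named after their values were seen, and all have at least 400 CPM in WT members.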
